A study of Homo sapiens with 18 samples.

Results

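Human umbilical vein endothelial cells (HUVEC) were cultured with extracellular vesicles of T cells, and the comparison described here sets vesicles captured with an antibody to CD63 against vesicles captured with an antibody to MHC class 1, both released by JinB8 cells. JinB8 was derived from the human T cell leukaemia line Jurkat and lacks the surface receptor CD47, so both groups share that deficiency and come from a single line. The arrays were chosen by the bracketed group name in their titles, 3 for JinB8 CD63+ and 3 for JinB8 MHC1+, or 6 of the 18 arrays. The remaining groups, 3 arrays each, were HUVEC with CD63+ vesicles of wild-type Jurkat cells, HUVEC with MHC1+ vesicles of wild-type Jurkat cells, HUVEC with IgG control beads, and untreated HUVEC. Culture with vesicles or beads lasted 3 days. Vesicles were purified by size-exclusion chromatography from medium pooled over flasks of each T cell line, so the 3 arrays of a group drew on pooled vesicles. No label says that they were separate HUVEC cultures. The p-values below then measure only the spread between arrays of a group, pooled over all 6 groups, and that spread may be technical. Values are log2 RMA signals from an Affymetrix whole-transcript gene array, with 1 probe set for each of 18417 gene symbols, and all differences are CD63+ minus MHC1+ on that scale.

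Extracellular vesicles are membrane particles that carry protein and RNA between cells. CD63 is a tetraspanin of late endosomes that is enriched on exosomes, whereas MHC class 1 is carried by most nucleated cells and by many of their vesicles, so the 2 captures take different but possibly overlapping vesicle populations. CD47 on T cells is a receptor for thrombospondin-1. Many of the genes described here are small nucleolar RNAs (snoRNAs), short nuclear RNAs that are usually cut out of introns of a host gene. H/ACA snoRNAs guide the change of uridine to pseudouridine and C/D snoRNAs guide ribose methylation, mainly in ribosomal RNA, and the small Cajal body RNAs (scaRNAs) do the same for spliceosomal RNAs.

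A single microRNA precursor passed the test between the captures, and it was higher with CD63+ vesicles. MIR138-2, on chromosome 16, gives the mature products shown here from RefSeq (GRCh38.p14), with the seed, bases 2 to 8, in capitals. The guide strand lies at chr16:56858527-56858549 on the plus strand.
hsa-miR-138-5p: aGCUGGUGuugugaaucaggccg
hsa-miR-138-2-3p: gCUAUUUCacgacaccaggguu
The precursors next in the p-value ranking were MIR219A1, MIRLET7C and MIRLET7E, which did not pass. The products of MIRLET7E and MIRLET7C are shown because they carry the same seed.
hsa-let-7e-5p: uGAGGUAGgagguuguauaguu
hsa-let-7c-5p: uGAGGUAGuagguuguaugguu
The probe sets on this array lie in precursor genes, so the signals below are not levels of these mature sequences.

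The 6 arrays were not equally alike. The CD63+ arrays correlated with each other at 0.9742 to 0.9818 over all probe sets, and the MHC1+ arrays at 0.9939 to 0.995. CD63+ replicate 2 correlated at 0.981 and 0.9742 with CD63+ replicates 1 and 3, but at 0.9918 to 0.9921 with the MHC1+ arrays. CD63+ replicates 1 and 3 also had a narrower spread of signals, with an SD of 2.12 and 2.05, against 2.19 in CD63+ replicate 2 and 2.21 to 2.25 in the MHC1+ arrays. Untreated replicate 3 and IgG bead replicate 3 stood far from the rest, with a median correlation of 0.649 and 0.636 with the other arrays, and were left out of the fit, which held 16 arrays. Jurkat MHC1+ replicate 1 also stood apart, at 0.948, and stayed in. Endothelial identity was alike in both groups: the mean of 22 endothelial genes lay between 8.67 and 8.76 in the CD63+ arrays and between 8.66 and 8.71 in the MHC1+ arrays, with 0 of 22 past the test.

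The narrower spread in the CD63+ group went with a difference that depended on signal level. The median difference of all genes was 0.03, but in the tenth of genes with the lowest signal it was 0.13, and in the tenth with the highest signal it was -0.21, where 79.9% of genes lay below 0. Without CD63+ replicates 1 and 3 these medians were 0.05 and -0.08, and with the SD of each array as a covariate they were 0.00 and 0.07. Centring the arrays on their medians moved the median of all genes to -0.08. The medians of the gene lists below are therefore followed by the same median without CD63+ replicates 1 and 3, an alternative added after the data were seen. The part of array spread in any list's shift was not tested beyond these values.

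With CD63+ vesicles, 34 genes differed from MHC1+ vesicles at an adjusted p under 0.05 (limma, Benjamini-Hochberg over all genes), which is 0.185% of the genes tested. Of these, 2 were higher (0.0109%) and 32 were lower; 3051 genes (16.6%) had an unadjusted p under 0.05. The 32 lower genes were 26 snoRNAs and scaRNAs, the vault RNA VTRNA1-1, and the protein-coding genes UXT, CCL2, EDN1, CLDN11 and HIGD1A. The 2 higher genes were STC1 and MIR138-2. The 3 arrays of each group did not overlap for any of the 34, though they also did not overlap for 14.5% of all genes in the higher and 12.8% in the lower direction. Of the 192 snoRNAs and scaRNAs measured, 13.5% were called lower, against 0.174% of all genes in that direction. Counts of calls in the lists below are to be read against 0.185% of all genes called, a share that leaves most short lists with none. The labels name both a standard column and a kit for small RNA for the extraction, and the part of RNA extraction in the snoRNA signals was not tested.

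**Figure D1:**
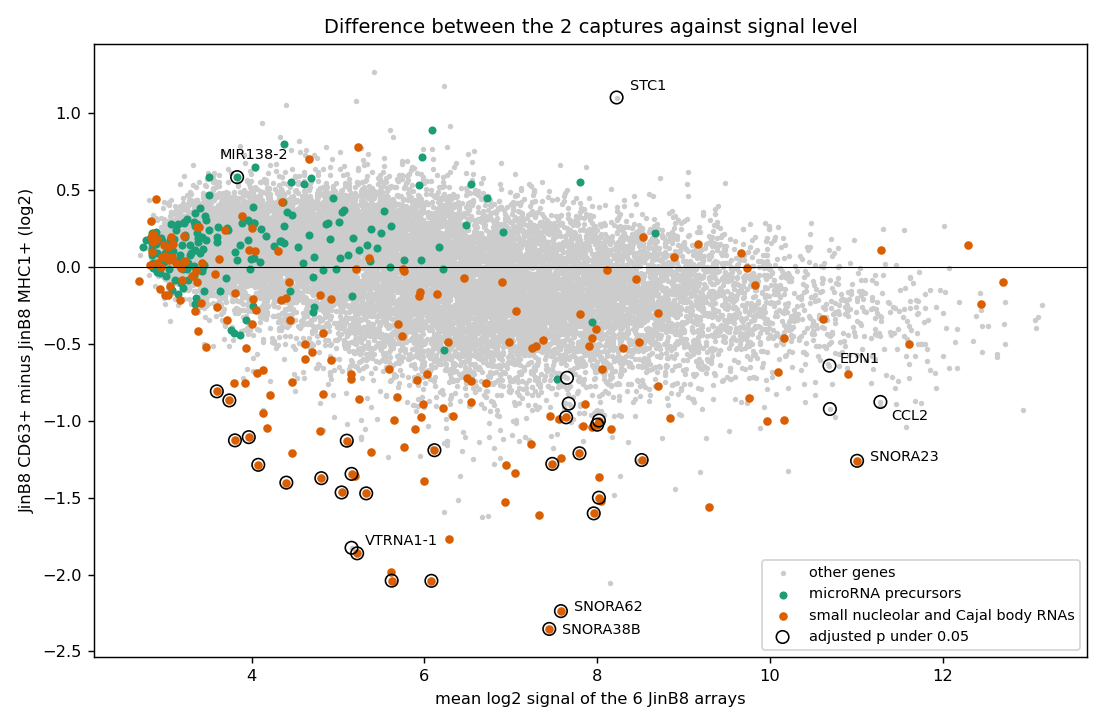
Difference between JinB8 CD63+ and JinB8 MHC1+ (vertical axis, log2) against the mean log2 signal of the 6 arrays (horizontal axis), 1 point per gene. Orange points are snoRNAs and scaRNAs, green points are microRNA precursors, and the 34 circled genes passed the test. The grey cloud slopes down to the right, and most circled genes are orange points well below it.

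Calls depended on which arrays were fitted. With the 2 discordant control arrays added there was 1 call. With those 2 and Jurkat MHC1+ replicate 1 all left out there were 355, or 1.93% of genes, which included all 34. Of the 355, 71 were higher (0.386%) and 284 lower (1.54%). The lower ones held 70 of the 192 snoRNAs and scaRNAs measured, where 1.54% of all genes were lower, and 202 protein-coding genes. The higher ones held 54 protein-coding genes. Without CD63+ replicates 1 and 3 there were 2 calls (0.0109%), SNORA38B and SNORD42A, and with array spread as a covariate there were 24 (0.13%). The fit without them has 1 CD63+ array, which is assumed to vary like the arrays of the other groups. All 34 genes kept the sign of their difference in both of these fits.

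SNORA38B, an H/ACA snoRNA, had the largest fall. It measured 5.99, 6.31 and 6.50 in the CD63+ arrays, against 8.62, 8.71 and 8.53 in the MHC1+ arrays. Every CD63+ array lay more than 2 log2 units below every MHC1+ array. The difference was -2.35 ± 0.16 (SE of the model, n = 3 each, adjusted p = 5.6e-06, limma), which is 5.11-fold lower with CD63+ vesicles. The bead arrays measured 6.52 and 6.32, close to the CD63+ arrays. Leaving out any single JinB8 array gave -2.47 to -2.22. SNORA38, a related copy, measured 4.43, 4.50 and 4.51 in CD63+ arrays, against 5.77, 5.97 and 5.74 in MHC1+ arrays, and fell by 1.35 ± 0.16 (adjusted p = 0.0020, limma). Probes for near copies such as SNORA38 and SNORA38B, SNORA14A and SNORA14B, SNORD38A and SNORD38B, or SNORD59A and SNORD59B may read each other's RNA, so these pairs may not be independent.

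SNORA62 gave the next largest fall among H/ACA RNAs but a wider spread. Its arrays read 6.30, 6.98 and 6.10 with CD63+ vesicles, against 9.38, 8.43 and 8.28 with MHC1+ vesicles, and MHC1+ replicate 1 was the highest of the 6. The fall was 2.24 ± 0.36 (adjusted p = 0.019, limma), and the difference was -1.72 without CD63+ replicates 1 and 3. SNORA14B, at 4.43, 6.23 and 4.50 against 7.16, 6.94 and 7.19 in MHC1+ arrays, rested on those 2 arrays, since its difference of -2.04 became -0.87 without them (with them, adjusted p = 0.037, limma). SNORA14A read 4.18, 4.79 and 3.90 with CD63+ vesicles, against 6.10, 6.25 and 6.11 with MHC1+ vesicles (difference -1.86 ± 0.22, adjusted p = 0.0018, limma). Here too CD63+ replicate 2 was nearest to the MHC1+ arrays, and the difference was -1.37 without the other 2 CD63+ arrays (adjusted p = 0.39, limma). SNORA37 was among the steadiest, with 7.17, 7.11 and 7.29 in CD63+ arrays, against 8.5, 8.42 and 8.28 in MHC1+ arrays. It fell by 1.21 ± 0.16 (adjusted p = 0.0034, limma), and by 1.29 without CD63+ replicates 1 and 3.

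Across the 77 H/ACA and Cajal body RNAs measured, 14 were called lower, where 0.174% of all genes were, and 0 were called higher. The median difference was -0.70, against 0.03 for all genes, and 66 of 77 lay below 0. The groups did not overlap for 49 of them in the lower direction, which is to be read against 12.8% of all genes. Leaving out CD63+ replicates 1 and 3 gave a median of -0.58, and with array spread as a covariate the median was -0.43 and 7 members were called lower. The other members called lower were SNORA65, SNORA50A, SCARNA4, SCARNA9L, SNORA23, SNORA27, SNORA68 and SNORA71A, with differences between -1.60 (SNORA65) and -0.98 (SNORA71A). SNORA23 had a mean of 10.38 ± 0.21 in CD63+ arrays and 11.64 ± 0.04 in MHC1+ arrays (SD, n = 3 each). Among 16 scaRNAs alone, 2 were called lower, and the median was -0.59, or -0.56 without CD63+ replicates 1 and 3.

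**Figure D2:**
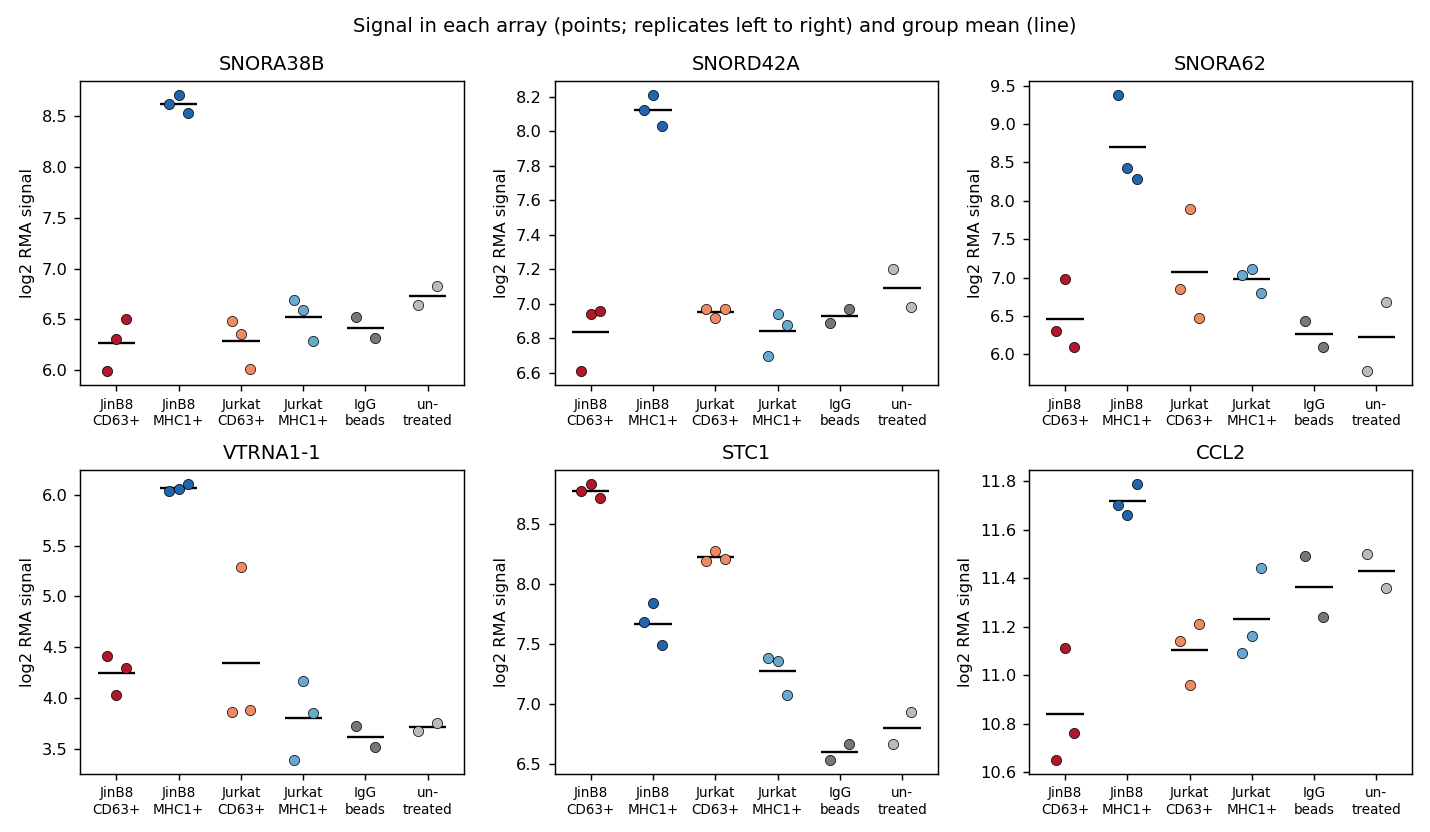
Log2 RMA signal of 6 genes in each array (points) with the group mean (line), for JinB8 CD63+, JinB8 MHC1+, Jurkat CD63+, Jurkat MHC1+, IgG beads and untreated cells; the discordant bead and untreated arrays are not shown. SNORA38B, SNORD42A, SNORA62 and VTRNA1-1 are high in the JinB8 MHC1+ arrays, whereas STC1 is highest in the CD63+ arrays of both vesicle sources.

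C/D snoRNAs outside the imprinted clusters had the same median difference as the H/ACA group. Of 69 measured, 12 were called lower, where 0.174% of all genes were, and 0 were called higher. Of the 69, 63 lay below 0, and the median difference was -0.70, or -0.67 without CD63+ replicates 1 and 3. With the covariate it was -0.54 and 5 were called lower. SNORD42A read 6.61, 6.94 and 6.96 in CD63+ arrays, against 8.12, 8.21 and 8.03 in MHC1+ arrays. The 2 sets were separated by more than 1 log2 unit, and the bead arrays, at 6.89 and 6.97, were close to the CD63+ values. The difference was -1.28 ± 0.12 (adjusted p = 0.00028, limma). SNORD38B showed the largest fall of this class, with 4.0, 5.12 and 4.67 in CD63+ arrays, against 6.83, 6.68 and 6.41 in MHC1+ arrays (difference -2.04 ± 0.28, adjusted p = 0.0067, limma). SNORD37 measured 3.29, 3.95 and 3.86 with CD63+ vesicles and 5.24, 5.02 and 5.05 with MHC1+ vesicles, a fall of 1.40 ± 0.17 (adjusted p = 0.0019, limma).

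The remaining C/D RNAs that passed were SNORD36B, SNORD59B, SNORD35A, SNORD38A, SNORD59A, SNORD51, SNORD104, SNORD1B and SNORD102. Their differences ran between -1.47 (SNORD36B) and -0.81 (SNORD102), and 4 of them, SNORD1B, SNORD102, SNORD51 and SNORD59A, had means under 4.6 in both groups, in the low range of the array. SNORD104 was brighter, at 7.49 ± 0.30 in CD63+ arrays and 8.51 ± 0.19 in MHC1+ arrays (SD, n = 3 each). In every fit that left out 1 of the 6 JinB8 arrays, 6 of the 26 snoRNAs and scaRNAs stayed past the threshold: SNORA38B, SNORD42A, SNORA14A, SNORD37, SNORA38 and SNORA37.

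Imprinted C/D snoRNAs, which lie in the 14q32 and 15q11 clusters and are expressed from one parental copy, had a median near that of all genes. None of 46 passed the test, where 0.185% of all genes did, and their median difference was 0.03, or 0.02 without CD63+ replicates 1 and 3, with 26 above 0 and 20 below. That median changed sign with the scaling, to -0.08 after centring on array medians and -0.03 after a further quantile normalization. The lowest values were those of SNORD116-25, at -1.05 (adjusted p = 0.13, limma), and SNORD116-26, at -0.95 (adjusted p = 0.14, limma). SNORD114-3 had a difference of -0.72 with 6.16, 5.92 and 6.32 in CD63+ arrays, against 6.96, 6.84 and 6.75 in MHC1+ arrays. Most of this class was near the floor of the array, with list means of 3.96 to 4.26 in CD63+ arrays and 4.13 to 4.18 in MHC1+ arrays.

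Among vault, Y and RNase RNAs, which are transcribed from their own promoters, 1 passed the test. VTRNA1-1, an RNA of the vault particle, read 4.41, 4.03 and 4.29 in CD63+ arrays, against 6.04, 6.06 and 6.11 in MHC1+ arrays, and fell by 1.83 ± 0.30 (adjusted p = 0.019, limma). Its difference was -2.04 without CD63+ replicates 1 and 3. VTRNA1-3 and VTRNA1-2 had differences of -0.97 and -0.88 and did not pass (adjusted p = 0.084 and 0.092, limma). RMRP, the RNA of the mitochondrial RNA-processing RNase, was tight in both groups, at 11.86, 11.81 and 11.84 in CD63+ arrays, against 12.50, 12.54 and 12.44 in MHC1+ arrays, yet missed the threshold (difference -0.66, adjusted p = 0.057, limma). The median of the 7 measured was -0.66, or -0.69 without CD63+ replicates 1 and 3, with 6 below 0. With array spread as a covariate, VTRNA1-3 and VTRNA1-2 were called lower (adjusted p = 0.049 and 0.044, limma) and VTRNA1-1 was not (adjusted p = 0.057, limma). With Jurkat MHC1+ replicate 1 also left out, 4 of the 7 were called lower, RMRP among them, where 1.54% of all genes were.

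Spliceosomal RNAs were split. None of 15 passed the test and their median was -0.01, or -0.13 without CD63+ replicates 1 and 3, with 7 above 0 and 8 below. With array spread as a covariate 1 was called lower, RNU5E-1, by 1.91 (adjusted p = 0.006, limma), where 18 of all genes were. With Jurkat MHC1+ replicate 1 also left out, 3 were called lower, RNU5E-1, RNU2-1 and RNU4ATAC, where 1.54% of all genes were. RNU5E-1 had 8.23, 7.84 and 8.48 in CD63+ arrays, against 10.17, 9.25 and 9.46 in MHC1+ arrays (difference -1.45, adjusted p = 0.066, limma). RNU2-1, the abundant U2 RNA, had a difference of -0.93 (adjusted p = 0.097, limma), and RNU4ATAC, of the minor spliceosome, one of -0.75 (adjusted p = 0.14, limma). RNU12, also of the minor spliceosome, lay in the other direction, with 5.73, 5.62 and 6.13 in CD63+ arrays, against 5.28, 5.52 and 4.84 in MHC1+ arrays (difference 0.62, adjusted p = 0.24, limma).

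Of 173 microRNA precursors measured, 134 lay above 0 and 39 below, and the median was 0.14, which was 0.04 without CD63+ replicates 1 and 3 and -0.03 with array spread as a covariate. Their mean signal was 3.99 to 4.19 in the CD63+ arrays and 3.94 to 3.96 in the MHC1+ arrays, and among all genes with signals of 3.82 to 4.34 the median was 0.15, with 21.9% below 0. MIR138-2 read 4.21, 4.05 and 4.10 with CD63+ vesicles, against 3.62, 3.50 and 3.48 with MHC1+ vesicles, a rise of 0.59 ± 0.10 (adjusted p = 0.033, limma) at a low level. It was not past the threshold in every fit without 1 JinB8 array, where the adjusted p reached 0.22. The let-7 precursors shown above, MIRLET7E and MIRLET7C, had differences of 0.65 and 0.59 (adjusted p = 0.22 and 0.19, limma).

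The proteins that build snoRNA particles did not pass the test. None of 12 measured genes of the core and assembly set was called, where 0.185% of all genes were. Their median difference of -0.35 became 0.02 both without CD63+ replicates 1 and 3 and with the covariate. NOP10, a core H/ACA protein, had 8.90, 9.56 and 9.06 in CD63+ arrays, against 10.05, 10.02 and 10.03 in MHC1+ arrays (adjusted p = 0.16, limma).

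None of the measured genes that contain a snoRNA passed the test, where 0.185% of all genes did. RefSeq placed 189 of the 192 RNAs inside another gene, and 98 of them in a gene measured here. For the 26 called RNAs, 17 had a measured host, making 16 different genes, of which 0 passed the test and 12 lay below 0, with a median of -0.27 and a range of -0.63 to 0.12. All 76 measured hosts had a median of -0.24, with 57 below 0 and 0 called. These hosts were picked as hosts and not for their own values, whereas the called snoRNAs were selected for their falls, so the gap between the 2 is a description. NOL11, around SNORA38B, had a difference of -0.38 (adjusted p = 0.33, limma) and RPL23A, around SNORD42A, one of -0.48 (adjusted p = 0.23, limma). POR, around SNORA14A, had one of -0.09, which was 0.15 without CD63+ replicates 1 and 3, 0.06 with the covariate and 0.01 after a further quantile normalization. NOL11 was at 0.09 with the covariate. PRRC2A, around SNORA38, and MBD2, around SNORA37, lay slightly above 0, at 0.12 and 0.08, though PRRC2A turned to -0.05 without CD63+ replicates 1 and 3 and to -0.02 with the covariate, and MBD2 to -0.03 after median centring. ATP5F1B, which holds SNORD59A and SNORD59B, had the lowest value, -0.63 (adjusted p = 0.24, limma).

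**Figure D3:**
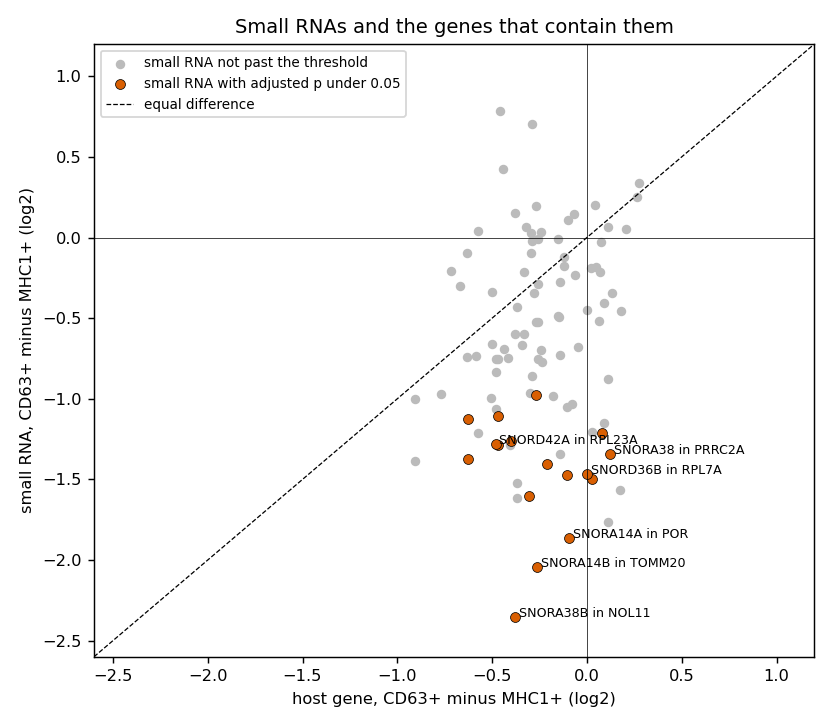
Difference between JinB8 CD63+ and JinB8 MHC1+ for snoRNAs and scaRNAs (vertical axis, log2) against that for the gene that contains each (horizontal axis, log2), for the 98 RNAs with a measured host. Orange points are the RNAs that passed the test and were thereby selected for their falls; their hosts lie between -0.63 and 0.12.

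Against IgG beads, the called snoRNAs were near the bead level with CD63+ vesicles and above it with MHC1+ vesicles. Over the 26, CD63+ minus beads had a median of 0.13 and a range of -0.56 to 0.59, and 0 passed the test, where 0.0923% of all genes did. MHC1+ minus beads had a median of 1.40 and a range of 0.55 to 2.43, and 20 rose, where 0.195% of all genes rose. The 2 comparisons share the 2 bead arrays, and each shares its vesicle arrays with the comparison that selected these RNAs, so the values are a description.

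Stanniocalcin 1, a secreted glycoprotein hormone, was the gene with the clearest rise. STC1, on chromosome 8, read 8.78, 8.84 and 8.72 with CD63+ vesicles, against 7.68, 7.84 and 7.49 with MHC1+ vesicles. All CD63+ arrays lay above all MHC1+ arrays by almost 1 log2 unit, and both groups lay above the bead arrays, at 6.53 and 6.66. The rise was 1.10 ± 0.13 (adjusted p = 0.0018, limma), or 2.15-fold, and it was 1.16 without CD63+ replicates 1 and 3. Leaving out single JinB8 arrays gave 1.01 to 1.19, with an adjusted p of at most 0.015. Its paralog STC2 did not pass, with 6.88, 6.89 and 6.75 in CD63+ arrays, against 7.10, 7.31 and 7.24 in MHC1+ arrays (difference -0.37, adjusted p = 0.22, limma).

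The genes that followed in the upward ranking did not pass. POU5F1B, a retrogene copy of the stem cell factor gene POU5F1, had a difference of 1.08, with 6.21, 5.25 and 5.80 in CD63+ arrays, against 4.61, 4.82 and 4.57 in MHC1+ arrays (adjusted p = 0.095, limma). DIO3OS, a long noncoding RNA of the imprinted 14q32 region, had one of 0.77 (adjusted p = 0.084, limma), C20orf203 one of 0.73 (adjusted p = 0.057, limma) and LINC03042 one of 0.68 (adjusted p = 0.066, limma). DNM1P46, a pseudogene, and ITGB4, the beta-4 integrin subunit of hemidesmosomes, had differences of 0.62 and 0.54. In all of them the CD63+ arrays lay above the MHC1+ arrays, as they did for 14.5% of all genes.

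Of the protein-coding genes, 5 fell with CD63+ vesicles. CCL2, the monocyte chemoattractant, read 10.65, 11.11 and 10.76 in CD63+ arrays, against 11.70, 11.66 and 11.79 in MHC1+ arrays, a fall of 0.88 ± 0.14 (adjusted p = 0.019, limma). EDN1, the precursor of the vasoconstrictor endothelin-1, read 10.41, 10.47 and 10.23 with CD63+ vesicles and 10.93, 10.97 and 11.13 with MHC1+ vesicles, a fall of 0.64 ± 0.11 (adjusted p = 0.036, limma). In both genes the CD63+ arrays were the lower ones, and the bead means, 11.37 for CCL2 and 11.16 for EDN1, were above the CD63+ means. EDN1 also fell against beads, by 0.79 (adjusted p = 0.030, limma).

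UXT, a prefoldin-like chaperone, averaged 7.23 ± 0.19 in CD63+ arrays and 8.11 ± 0.07 in MHC1+ arrays (SD, n = 3 each; adjusted p = 0.019, limma). CLDN11, a tight-junction claudin, averaged 10.23 ± 0.19 in CD63+ arrays and 11.16 ± 0.13 in MHC1+ arrays (adjusted p = 0.037, limma). HIGD1A, a mitochondrial protein induced by hypoxia, averaged 7.29 ± 0.17 in CD63+ arrays and 8.01 ± 0.08 in MHC1+ arrays (adjusted p = 0.038, limma). None of these 5 genes passed in each of the fits that left out 1 JinB8 array, and none passed without CD63+ replicates 1 and 3, where their differences lay between -0.72 and -0.53.

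Inflammatory cytokines had 1 call. Of 20 chemokines, cytokines and their regulators, CCL2 alone was called lower, where 0.174% of all genes were. The median of the list was -0.33, or -0.10 without CD63+ replicates 1 and 3. CXCL8, the neutrophil chemoattractant interleukin 8, had 9.04, 9.56 and 9.08 in CD63+ arrays, against 10.01, 10.10 and 10.21 in MHC1+ arrays, a difference of -0.88 that missed the threshold (adjusted p = 0.057, limma). IL1A and IL6 had differences of -0.72 and -0.56 (adjusted p = 0.15 and 0.16, limma). The leukocyte adhesion molecules ICAM1 and VCAM1 had differences of -0.48 and -0.23 (adjusted p = 0.22 and 0.36, limma), and 0 of 10 genes of that list passed (median -0.18, or -0.09 without CD63+ replicates 1 and 3).

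Interferon-stimulated genes leaned lower with no call. Of 25 type I interferon genes, 24 lay below 0 with a median of -0.52, which shrank to -0.16 without CD63+ replicates 1 and 3. IFITM1, which blocks virus entry, showed the array pattern of this list: 11.01, 11.75 and 10.95 in CD63+ arrays, against 12.11, 12.07 and 12.14 in MHC1+ arrays. CD63+ replicate 2 sat close to the MHC1+ values and the other 2 lay about 1 log2 unit lower (difference -0.87, adjusted p = 0.13, limma). IFI27 and IFI35 had differences of -0.61 and -0.90 (adjusted p = 0.066 and 0.15, limma). Among 10 interferon-gamma response genes 0 passed, with a median of -0.48 that became -0.07 without CD63+ replicates 1 and 3, and the chemokine CXCL10 had the widest gap, with 5.05, 6.52 and 4.74 in CD63+ arrays, against 6.77, 7.31 and 7.01 in MHC1+ arrays (difference -1.59, adjusted p = 0.23, limma). It was -0.51 without CD63+ replicates 1 and 3. Of 12 antigen presentation genes 0 passed, with a median of -0.31 that became -0.07 in the same fit. B2M, the light chain of MHC class 1, had a difference of -0.66 (adjusted p = 0.22, limma), and PSMB9, an immunoproteasome subunit, one of -0.83 (adjusted p = 0.13, limma).

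**Figure D4:**
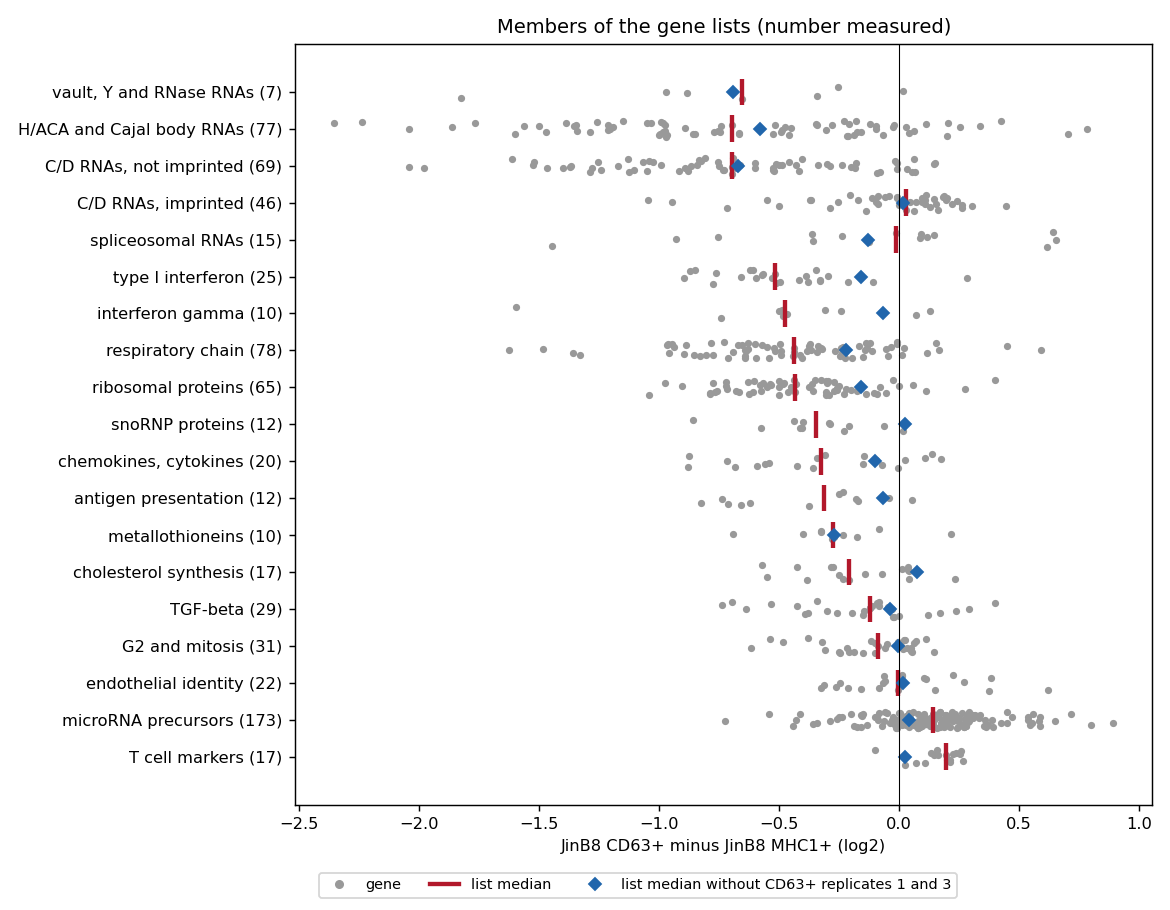
Difference between JinB8 CD63+ and JinB8 MHC1+ (horizontal axis, log2) for each measured gene (grey points) of 19 lists, with the list median in all arrays (red bar) and without CD63+ replicates 1 and 3 (blue diamond). The bar and the diamond are close for the H/ACA, C/D and vault RNA lists, and the diamond is nearer 0 for the interferon, respiratory chain and ribosomal protein lists.

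Genes of oxidative metabolism and translation showed the same split between replicates. Of 78 respiratory chain and ATP synthase genes, 71 lay below 0 and 0 passed, with a median of -0.44 that became -0.22 without CD63+ replicates 1 and 3. COX6A1, a cytochrome oxidase subunit, was nearest to the threshold, with 9.08, 9.64 and 9.16 in CD63+ arrays, against 10.25, 10.18 and 10.11 in MHC1+ arrays (adjusted p = 0.057, limma). UQCRQ of complex III and SDHD of complex II had differences of -0.69 and -0.96 (adjusted p = 0.078 and 0.12, limma). Of 65 cytosolic ribosomal protein genes, 60 lay below 0 and 0 passed, with a median of -0.43, or -0.16 without those arrays. RPS28 and RPL38 had differences of -0.72 and -0.98 (adjusted p = 0.095 and 0.16, limma). With Jurkat MHC1+ replicate 1 also left out, where 1.54% of all genes were called lower, 10 of the 78 respiratory chain genes and 5 of the 65 ribosomal protein genes were called lower. In that fit 5 of the 20 chemokine and cytokine genes, 3 of the 25 type I interferon genes and 2 of the 12 antigen presentation genes were called lower as well. So were 4 of the 58 histone genes, 3 of the 29 TGF-beta genes, 2 of the 46 imprinted C/D snoRNAs and 2 of the 16 NRF2 and antioxidant genes. The 10 metallothioneins, 10 interferon-gamma response genes, 14 sterol sensing genes and 19 hypoxia genes had 1 lower call each. The 19 matrix proteases had 1 higher and 1 lower call, as did the 14 genes tied to CD47. Of 173 microRNA precursors 3 were called higher, where 0.386% of all genes were.

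Antioxidant and metal-binding genes gave no call in the fit of 16 arrays. The 16 NRF2 and antioxidant genes had a median of -0.39, which was -0.18 without CD63+ replicates 1 and 3 and -0.06 with the covariate, and TXN, thioredoxin, a difference of -0.88 (adjusted p = 0.22, limma). The 10 metallothioneins had a median of -0.28 that was -0.27 without CD63+ replicates 1 and 3. MT1X read 6.18, 6.50 and 6.0 with CD63+ vesicles and 7.10, 6.89 and 6.77 with MHC1+ vesicles (adjusted p = 0.074, limma). MT2A, at 12.88 ± 0.16 in CD63+ arrays and 13.28 ± 0.04 in MHC1+ arrays (SD, n = 3 each), had a difference of -0.40. The 58 replication histone genes had a median of -0.20, or -0.18 without CD63+ replicates 1 and 3, and 0 passed.

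TGF-beta genes had 0 calls among 29 measured, with a median of -0.12 that became -0.04 without CD63+ replicates 1 and 3. TGFBI, whose protein is secreted to the matrix after TGF-beta, was separated cleanly, at 7.64, 7.76 and 7.73 in CD63+ arrays, against 8.29, 8.24 and 8.19 in MHC1+ arrays, but its difference of -0.53 ± 0.10 missed the threshold narrowly (adjusted p = 0.050, limma). Both groups lay below the beads, at 8.81 and 8.69, and with CD63+ vesicles TGFBI fell by 1.04 against beads (adjusted p = 0.0016, limma). TGFB2, the ligand, read 9.21, 9.07 and 9.0 in CD63+ arrays and 9.82, 9.64 and 10.02 in MHC1+ arrays (difference -0.74, adjusted p = 0.12, limma), and fell by 1.32 against beads with CD63+ vesicles (adjusted p = 0.018, limma). INHBA, the activin A subunit, had a difference of -0.70 (adjusted p = 0.16, limma). The matrix metalloprotease MMP10 read 6.72, 7.58 and 6.67 in CD63+ arrays, against 7.96, 8.12 and 8.15 in MHC1+ arrays, with CD63+ replicate 2 nearest to the MHC1+ arrays. Its difference of -1.08 (adjusted p = 0.095, limma) was -0.49 without CD63+ replicates 1 and 3. The protease ADAMTS9 had a difference of 0.54 (adjusted p = 0.18, limma), and 0 of 19 matrix proteases passed. The ADAMTS9 difference was 0.61 without CD63+ replicates 1 and 3. With array spread as a covariate it was 0.80, and the gene was called higher (adjusted p = 0.015, limma).

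Sterol and fatty acid synthesis differed little between the captures. None of 17 cholesterol synthesis genes passed, and the median changed sign with the processing, from -0.21 with all arrays to 0.08 without CD63+ replicates 1 and 3 and 0.40 with the covariate. Both groups had medians near 0.9 above beads in this list, at 0.90 for CD63+ and 0.91 for MHC1+ vesicles. Of 11 fatty acid synthesis genes 0 passed, 8 lay below 0 and 3 above. Their median of -0.13 became 0.09 without CD63+ replicates 1 and 3 and 0.29 with the covariate. ELOVL6 had the lowest value, -0.71 (adjusted p = 0.28, limma). FASN, fatty acid synthase, had the highest, 0.46, with 8.93, 8.71 and 9.0 in CD63+ arrays, against 8.56, 8.43 and 8.27 in MHC1+ arrays (adjusted p = 0.22, limma). The sterol regulator genes SREBF1 and SREBF2 had differences of 0.37 and 0.31 (adjusted p = 0.23 and 0.26, limma). In their list of 14 sterol sensing, uptake and efflux genes, 8 lay below 0 and 6 above. The median of that list was -0.05, or 0.18 without CD63+ replicates 1 and 3.

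Cell cycle genes gave no call between the captures: 0 of 31 G2 and mitosis genes and 0 of 23 replication genes passed, with medians of -0.09 and -0.08, or 0.00 and -0.04 without CD63+ replicates 1 and 3 and 0.22 and 0.08 with the covariate. CCNB1 and CCNB2, the mitotic B cyclins, had differences of -0.54 and -0.62 (adjusted p = 0.28 and 0.27, limma).

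Genes tied to the receptor that JinB8 cells lack did not differ past the threshold in the endothelial cells in the fit of 16 arrays. CD47 had 8.73, 9.08 and 8.23 in CD63+ arrays, against 8.88, 9.10 and 9.13 in MHC1+ arrays, which overlap (adjusted p = 0.55, limma). Its ligand THBS1, thrombospondin-1, averaged 12.89 ± 0.09 in CD63+ arrays and 13.24 ± 0.06 in MHC1+ arrays (SD, n = 3 each; adjusted p = 0.21, limma). NOS3, endothelial nitric oxide synthase, had 7.54, 7.10 and 7.49 in CD63+ arrays, against 6.93, 6.81 and 6.87 in MHC1+ arrays (difference 0.50, adjusted p = 0.15, limma), and CAV1, caveolin-1, had a difference of -0.70 (adjusted p = 0.13, limma). The captured tetraspanin's own gene in HUVEC, CD63, had a difference of -0.44 and CD9 and CD81 had -0.55 and -0.23, none past the threshold.

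No marker of another cell type passed the test. The mean of 17 T cell markers was 4.33, 4.15 and 4.38 in the CD63+ arrays, against 4.15, 4.14 and 4.09 in the MHC1+ arrays, and 4.13 and 4.27 in the bead arrays. Of these 17, 16 lay above 0 with a median of 0.20, which was 0.03 without CD63+ replicates 1 and 3 and -0.09 with the covariate, and 0 passed. Fibroblast and smooth muscle (13), monocyte (9) and epithelial (9) markers had medians of 0.14, 0.15 and 0.15, which were -0.07, 0.05 and 0.01 without CD63+ replicates 1 and 3 and -0.08, -0.04 and -0.10 with the covariate. Some of these markers gave a strong signal in HUVEC: RGS5 of the smooth muscle list read 10.04 to 10.05 in CD63+ arrays and 10.20 to 10.50 in MHC1+ arrays, and KRT18 of the epithelial list read 8.82 to 9.04 in CD63+ arrays and 8.64 to 8.89 in MHC1+ arrays. In RNA from whole cultures, fewer cells of a type and less RNA per cell cannot be told apart, and RNA carried in by vesicles cannot be told from RNA made by HUVEC.

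The capture difference was then compared with that of Jurkat vesicles, whose parent cells carry CD47. With Jurkat vesicles, CD63+ against MHC1+ gave 1 call (0.00543% of genes), STC1, which rose by 0.96 (adjusted p = 0.033, limma), and the difference between lines was not past the threshold for it (0.15, adjusted p = 0.55, limma). None of the 26 snoRNAs and scaRNAs passed with Jurkat vesicles: their differences ran from -0.24 to 0.77 with a median of 0.19, and 23 lay above 0. These values include Jurkat MHC1+ replicate 1, which stood apart from the other arrays. SNORD36B read 3.19 in it, against 4.37 and 4.27 in the other Jurkat MHC1+ arrays, and SNORD38B 3.53, against 4.69 and 4.42. SNORA38B, at 6.69, was instead highest of its group there. For SNORD38B the other Jurkat MHC1+ arrays were above the Jurkat CD63+ mean of 4.41, so the sign of its Jurkat difference rested on that array. For SNORD36B they were below the Jurkat CD63+ mean of 4.71, so its sign did not. A fit without that array was run, and its calls between the lines are given below, but the other Jurkat differences in it are not. The test of the difference between the lines called 3 genes (0.0163% of genes), in each of which the capture difference was lower in JinB8. They were SNORA38B, by -2.11 (adjusted p = 0.0026, limma), SNORA37, by -1.64 (adjusted p = 0.013, limma), and SNORD42A, by -1.39 (adjusted p = 0.0078, limma). SNORA38B read 6.48, 6.36 and 6.01 with Jurkat CD63+ vesicles and 6.69, 6.59 and 6.29 with Jurkat MHC1+ vesicles, so the JinB8 MHC1+ arrays, at 8.53 or more, were the only high ones among the 4 vesicle groups. The same fit without CD63+ replicates 1 and 3 called 0 genes between the lines, with 703 at an unadjusted p under 0.05.

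**Figure D5:**
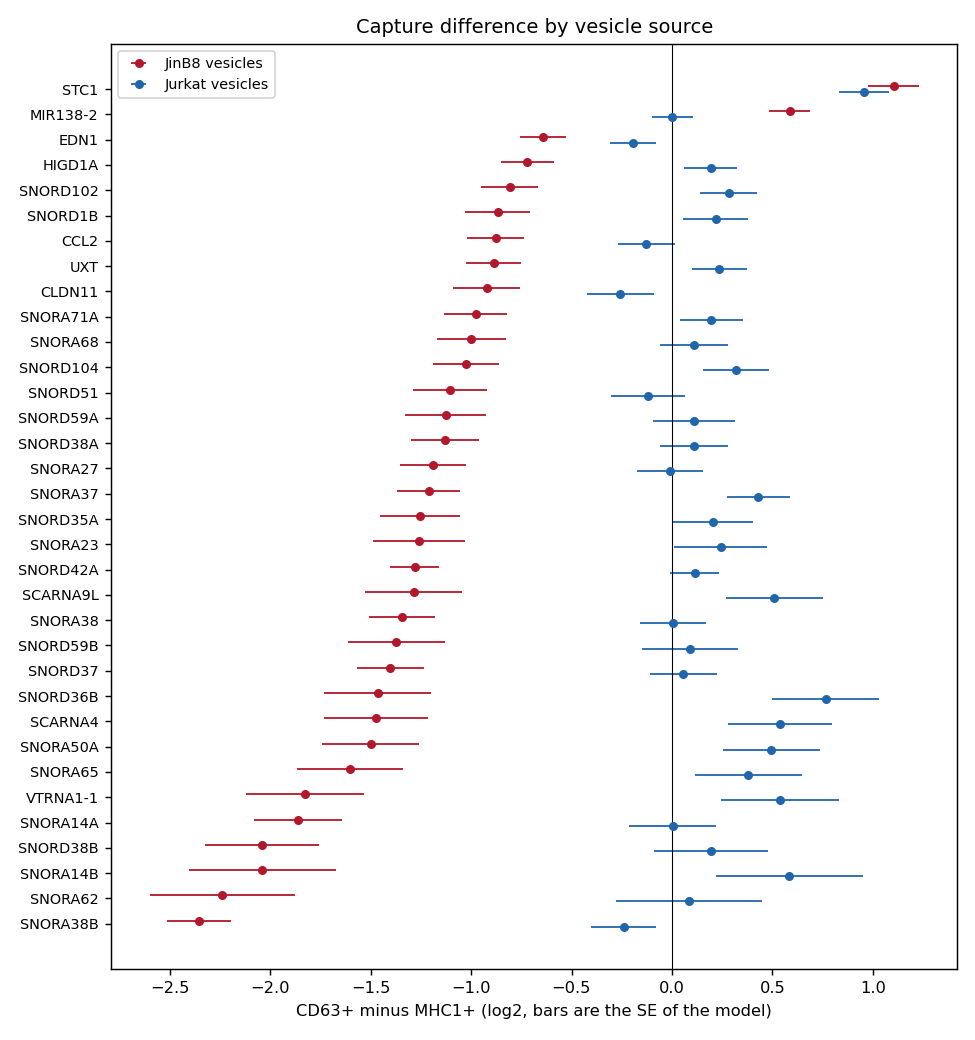
CD63+ minus MHC1+ difference (horizontal axis, log2) of the 34 called genes for JinB8 vesicles (red) and Jurkat vesicles (blue), with the SE of the model. STC1 is above 0 for both sources, and the Jurkat points of most snoRNAs lie near or above 0.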

How the data were processed

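HUVEC RNA from 18 arrays in 6 groups was used, 300 ng of total RNA each. The authors deposited log2 values made with RMA in Affymetrix Expression Console, per the submitters' processing notes; the genome build is not given in the sources used here. The labels' protocols name Trizol with a column kit, whereas the series' design text names a kit for miRNA; whether all groups were handled alike is not given. RMA fits a common distribution to all arrays, so a shift shared by most genes is not visible. The title brackets gave the groups; the free text of most JinB8 arrays carries other numbers after JINB.

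Of 33297 probe sets, 19460 had 1 gene symbol (1754 had several and 12083 none), and each of 18417 genes was represented by its brightest probe set, by mean signal over the 18 arrays. limma 3.58.1 (R 4.3.3) fitted 1 mean per group to 16 arrays; tests were moderated, two-sided and adjusted by Benjamini-Hochberg over all genes, called under 0.05. The script was tested on simulated data. The number of arrays limits the precision. Members and gene lists were chosen with earlier results of these data known, and no list was tested as a set. Named genes were the 15 largest falls and rises among called genes (with fewer than 5 called in a direction, the 8 smallest p), up to 4 genes per list with the smallest adjusted p, and genes set with the lists; further called genes and host genes are named besides. Alternatives changed the arrays, the filter on low signal, the normalization, the weights and the variance model. RefSeq tables gave host genes and microRNA sequences. Python 3.11.15 was used for tables.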

Additional observations from a re-analysis of the deposited data

Results flagged for a closer look

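The capture difference, CD63+ minus MHC1+, differed between vesicle sources for 3 snoRNAs by the test of the difference itself (limma, adjusted over all genes). The capture difference in JinB8 minus that in Jurkat was -2.11 on the log2 scale for SNORA38B, -1.64 for SNORA37 and -1.39 for SNORD42A. With MHC1+ vesicles their means were 8.62, 8.4 and 8.12 for JinB8, against 6.52, 6.76 and 6.84 for Jurkat. With CD63+ vesicles they were 6.27, 7.19 and 6.84 for JinB8, against 6.28, 7.19 and 6.95 for Jurkat. In each the 3 JinB8 MHC1+ arrays lay above all other JinB8 arrays.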

How the results depend on the processing

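The count of 34 genes became 1 with all 18 arrays, 56 with the 6 JinB8 arrays alone, 17 with the 12 vesicle arrays, 355 with Jurkat MHC1+ replicate 1 also left out, 14 without the lower 50% of genes by signal, 22 after a further quantile normalization, 4248 with array weights and 2 without CD63+ replicates 1 and 3. It ran from 7 to 714 when 1 JinB8 array was left out, 714 without CD63+ replicate 2 and 7 without MHC1+ replicate 1. Array weights gave the lowest weight, 0.108, to Jurkat MHC1+ replicate 1. Fewer genes or samples are part of the change where arrays or genes were left out; otherwise the cause was not tested. Median centring gave 37, 1 higher and 36 lower. With array spread as a covariate 24 were called, 6 higher and 18 lower, and 11 of the 34 stayed among them, including STC1 and 10 snoRNAs. The 3 calls between vesicle sources became 0 with all 18 arrays, 15 without Jurkat MHC1+ replicate 1, 6 after quantile normalization, 5756 with array weights and 0 without CD63+ replicates 1 and 3, and ran from 1 to 1786 when 1 JinB8 array was left out, 1786 without CD63+ replicate 2. With all 18 arrays, 450 genes were at an unadjusted p under 0.05 for it.

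No called gene changed sign in any setting run. Among genes not called, sign changes were listed for a chosen set only. In it, CD47 changed sign with the covariate (0.547) and without CD63+ replicates 1 and 3 (0.039). POR did so with quantile normalization (0.011), with the covariate (0.056) and without those replicates (0.145). PRRC2A changed sign without those replicates (-0.049) and with the covariate (-0.023), and NOL11 (0.086) and RGS5 (0.092) with the covariate. Quantile normalization turned CD81 (0.012), CDH5 (0.042), EEF2 (0.038) and THBS1 (0.045), and centring turned MBD2 (-0.03). The list is not complete, since uncalled genes outside that set changed sign as well. Examples are ACAT2, INSIG2, ELOVL5, SOX18, SHQ1 and CD14 with the covariate, and NHP2 without CD63+ replicates 1 and 3. No paired analysis was possible because the labels give no replicate numbers shared between groups.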

Other observations

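Of 13837 probe sets without a single gene symbol, 3 were higher and 3 lower with CD63+ than with MHC1+ JinB8 vesicles (limma, adjusted p under 0.05), and 2406 had an unadjusted p under 0.05. They are unnamed here.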
